A study of Mus musculus with 18 samples.

Results

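The 46 genes described here encode the DNA replication machinery and the factors of S phase entry, from Mcm2 to Mcm7 and Pcna to the E2F factors E2f1, E2f2 and E2f8. They were chosen by name, as the rows of the deposited count table whose Ensembl identifiers belong to these symbols in GENCODE M21. All 46 were found among the 55536 Ensembl genes of the table, and all 46 passed the filter on low counts in each comparison. Their levels were compared in 18 libraries of RNA from CD8+ T cells, taken from the spleen and the lymph nodes of mice. All libraries are labelled OT-I, the name of a transgenic T cell receptor that recognises the ovalbumin peptide SIINFEKL. There were 2 libraries labelled Tra2bKO and 8 labelled scrambled Control, both from cells taken at day 4 after SIINFEKL with anti-OX40 and anti-41BB antibodies, which stimulate costimulatory receptors. The other 8 libraries were labelled naïve, from day 0. Tra2b encodes a splicing regulator, and the series' title concerns its ultraconserved poison exon.

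A replicating cell prepares its origins in G1 phase. The origin recognition complex, with Cdc6 and Cdt1, loads the MCM helicase ring onto DNA, and geminin blocks Cdt1 once S phase has begun. Cdc45, the GINS complex and Mcm10 then turn the loaded ring into a moving helicase. Polymerase alpha and primase start each strand, RFC loads the PCNA clamp, and polymerases epsilon and delta extend the leading and lagging strands. Many of these genes are transcribed under E2F factors, which are released when cyclin E and other cyclins act on the retinoblastoma family. Naive T cells are quiescent, and antigen drives them into rapid division.

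The labels were checked before the genes were compared. Total counts were 79197461 and 93495846 in the knockout libraries, 73735681 to 93972513 in the control libraries and 68249844 to 86932452 in the naive ones. The 10 CD8 T cell marker genes together had 8473 and 7171 CPM in the knockout libraries, 8222 to 9606 CPM in the control libraries and 9693 to 11641 CPM in the naive ones. CPM is the count scaled to library size (TMM factors over all 18 libraries). Trbv12-1, the beta chain segment of the OT-I receptor, held 99.4 to 99.7% of beta chain V segment counts in the knockout libraries and 99.6 to 99.8% in the controls. Its share was 5.95 to 12.4% in the naive libraries, which goes against a pure OT-I population, so "naive" below means that label only. Tra2b itself had 361 and 370.5 CPM in the knockout libraries, within the 338 to 526 CPM of the controls, and 248 to 352 CPM in the naive libraries. Its level did not differ between knockout and control past the threshold (log2 fold change -0.34 ± 0.13 SE, edgeR adjusted p = 0.0899), so the gene count does not check the knockout label, and knockout below means the label. Tra2b was called lower in 3 of 19 alternatives, without control library 2 for one, and the adjusted p ran from 0.00803 to 0.609 over them. Whether the libraries of a group came from separate animals is not stated, so the p-values reflect the spread among the libraries alone, and that spread may be technical.

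Since the 46 genes moved together between naive and control libraries, their promoters were read for the letters that E2F factors bind. RefSeq promoters on GRCm38.p6, each running from 250 bases before to 50 bases after an annotated start, were found for 36 of the 46 genes. The letters TTTCCCGC, TTTGGCGC, TTTCGCGC or TTTGCCGC, on either strand and with overlapping matches counted, occurred in 15 of these 36 (41.7%), against 704 of all 27025 genes in the table (2.6%). With reading stopped at the start they occurred in 8 of the 36 (22.2%), against 2.2% of all genes. The last 6 letters of each alone occurred in 29 of the 36 (80.6%), against 39.0% of all genes, so the shorter letters were common among all genes too. CCAAT occurred in 63.9% of the 36, against 41.1% of all. The letters TTTGAA or TTCGAA of the cell cycle homology region occurred in 25.0%, against 21.7% of all. The E-box CACGTG occurred in 16.7%, against 8.1%. For Mcm4, a subunit of the helicase ring, no promoter was found, so it was not read. Genes with more than 1 E2F match were Mcm3, Mcm5, Mcm6, Mcm7 and Rfc3, so 4 of the 6 subunits of the ring were among them. Their promoters are printed with that of Pole2, the gene with the lowest log2 fold change of knockout against control. Each runs 5′ to 3′ on the gene's strand, from 250 bases before to 30 bases after the RefSeq start, with E2F matches in capitals.
Mcm3 (chr1:20820283-20820562, minus strand): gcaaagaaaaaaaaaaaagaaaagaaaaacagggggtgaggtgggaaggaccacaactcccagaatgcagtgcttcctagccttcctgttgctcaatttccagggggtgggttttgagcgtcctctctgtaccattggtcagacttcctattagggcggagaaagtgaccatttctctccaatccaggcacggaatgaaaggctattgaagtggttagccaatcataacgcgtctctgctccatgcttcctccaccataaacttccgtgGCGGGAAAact
Mcm5 (chr8:75109259-75109538, plus strand): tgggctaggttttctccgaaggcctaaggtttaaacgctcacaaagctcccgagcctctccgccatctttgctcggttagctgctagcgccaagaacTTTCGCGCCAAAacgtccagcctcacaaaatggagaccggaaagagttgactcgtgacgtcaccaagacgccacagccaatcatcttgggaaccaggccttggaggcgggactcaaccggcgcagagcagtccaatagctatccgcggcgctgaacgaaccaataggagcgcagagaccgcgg
Mcm6 (chr1:128359676-128359955, minus strand): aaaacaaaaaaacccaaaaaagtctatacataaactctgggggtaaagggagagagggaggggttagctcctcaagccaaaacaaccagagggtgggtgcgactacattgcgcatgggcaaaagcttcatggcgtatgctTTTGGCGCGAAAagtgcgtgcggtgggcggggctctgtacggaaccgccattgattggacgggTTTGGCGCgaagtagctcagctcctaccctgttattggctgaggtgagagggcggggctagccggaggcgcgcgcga
Mcm7 (chr5:138171854-138172133, minus strand): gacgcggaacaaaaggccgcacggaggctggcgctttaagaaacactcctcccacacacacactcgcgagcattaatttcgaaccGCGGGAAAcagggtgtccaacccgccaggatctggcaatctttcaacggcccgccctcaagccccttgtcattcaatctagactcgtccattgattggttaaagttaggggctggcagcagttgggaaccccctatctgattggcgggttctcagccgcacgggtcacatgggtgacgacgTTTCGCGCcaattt
Rfc3 (chr5:151651179-151651458, minus strand): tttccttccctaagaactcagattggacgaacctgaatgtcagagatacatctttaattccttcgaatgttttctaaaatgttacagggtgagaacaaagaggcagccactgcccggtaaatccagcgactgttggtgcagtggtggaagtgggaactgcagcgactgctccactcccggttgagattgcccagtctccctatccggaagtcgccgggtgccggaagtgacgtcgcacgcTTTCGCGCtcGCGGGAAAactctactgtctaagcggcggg
Pole2 (chr12:69228161-69228440, minus strand): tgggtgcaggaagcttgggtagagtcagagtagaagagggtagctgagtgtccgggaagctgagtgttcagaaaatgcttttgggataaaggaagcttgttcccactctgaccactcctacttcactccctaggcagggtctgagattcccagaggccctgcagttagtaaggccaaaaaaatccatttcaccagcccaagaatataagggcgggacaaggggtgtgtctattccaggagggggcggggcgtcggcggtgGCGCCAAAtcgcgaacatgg
In Mcm5 and Mcm6 pairs of matches overlap, as one run of capitals that starts 153 and 110 bases before the start, and Mcm6 has another match 47 bases before it. The Rfc3 matches begin 10 bases before the start and at the start itself. In Mcm3 the match shown begins 19 bases after the start, and the other, 38 bases after it, lies past the printed letters. The Mcm7 matches begin 165 bases before and 16 bases after the start, and that of Pole2 begins 10 bases after it. For Mcm5 and Mcm6 the far end of the RefSeq window was not found in a GENCODE M21 transcript of the gene. A match is a description of letters and not a measured binding site.

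Control against naive libraries sets cells labelled scrambled control at day 4 after stimulation against cells labelled naive at day 0. All 46 genes were higher in the control libraries than in the naive ones (edgeR quasi-likelihood test, adjusted p under 0.05), where 32.5% of the 17078 genes tested were called higher. None of the 46 was lower, at an unadjusted p under 0.05 or with DESeq2 either. The median log2 fold change of the 46 was 1.14, a 2.21-fold difference, against -0.09 over all genes tested. The changes ran from 0.54 for Rfc1 to 1.66 for Ccne2, and 32 of the 46 reached a log2 fold change of 1. Of all 17078 genes tested, 1454 were called higher with a change of at least that size. Control and naive ranges did not overlap for 44 genes, with all controls higher, against 20.1% of all genes tested. The 2 exceptions were Ccne1 and E2f1. In bulk RNA, a larger share of cells in cycle and more RNA per cycling cell cannot be told apart.

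**Figure D1:**
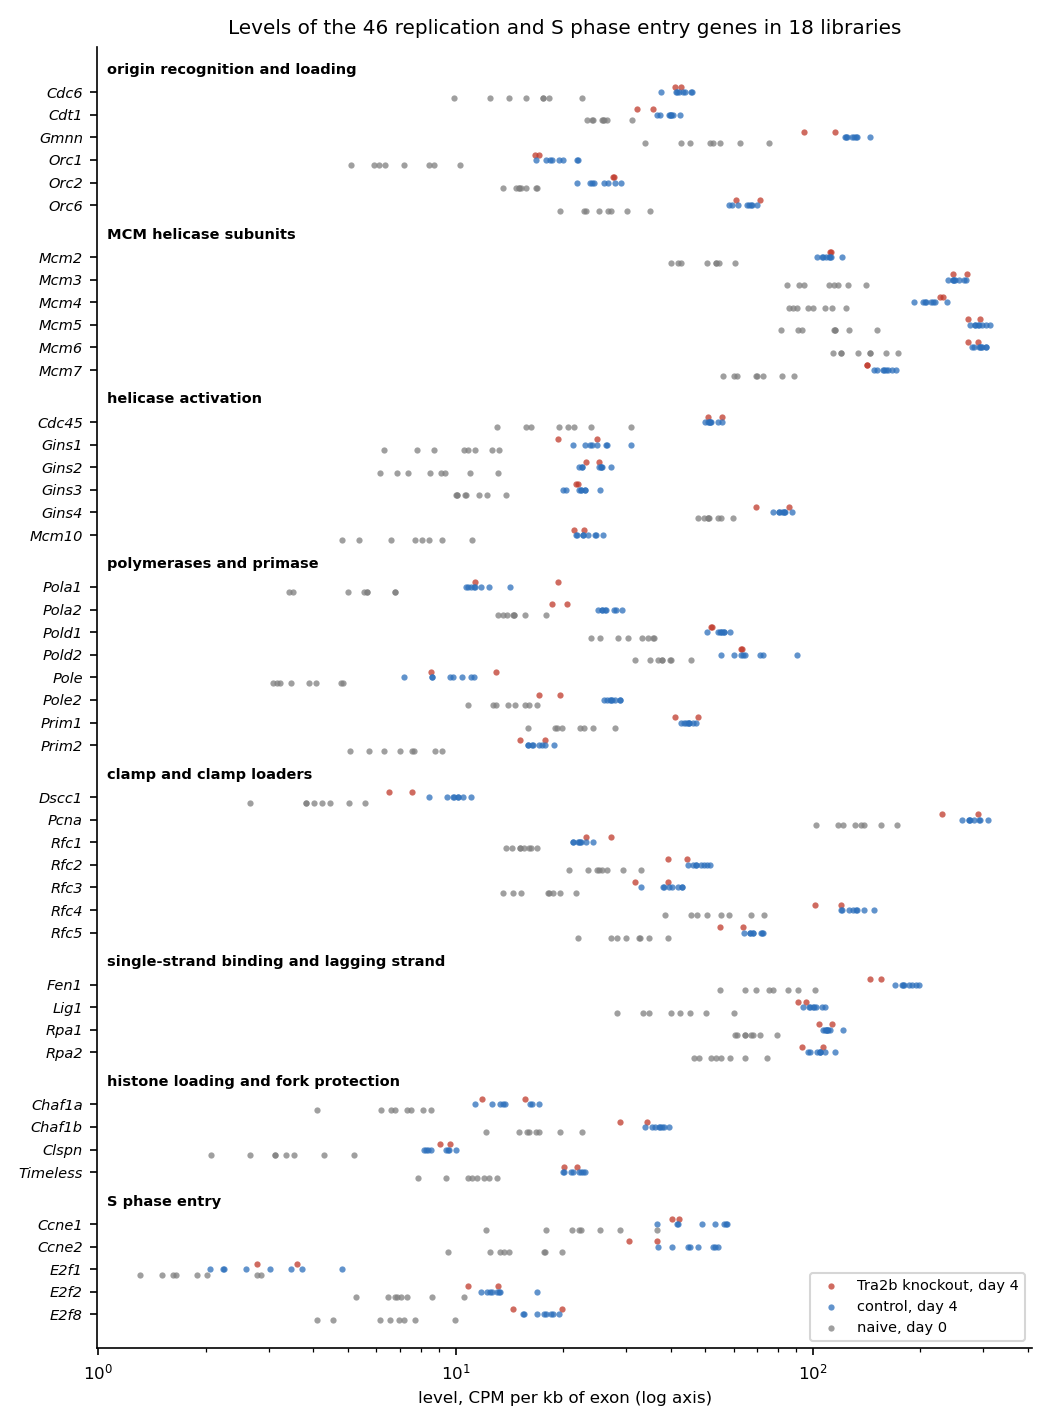
Level of each of the 46 genes in every library, in CPM per kb of exon on a log axis, with knockout in red, control in blue and naive in grey, each point 1 library. The control points lie right of the naive points without overlap for 44 genes, and most red points lie among the blue ones or just left of them.

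Origin recognition and loading genes rose in all 6 cases in the controls. Cdc6, the ATPase that brings MCM to origins, had 223 and 215 CPM in the knockout libraries, 197 to 239.9 CPM (median 224) in the controls and 51.8 to 118 CPM (median 87.1) in the naive libraries. Cdt1, the loading factor that works with it, had 112 and 101 CPM in the knockout libraries, 115 to 133 CPM (median 125) in the controls and 73.3 to 97.8 CPM (median 80.9) in the naive ones. Both day 4 groups stood above every naive library for both genes, and both knockout libraries stood below every control for Cdt1. The change between control and naive was 1.41 ± 0.12 (SE) on the log2 scale for Cdc6 and 0.61 ± 0.06 for Cdt1, the smallest of this group (adjusted p = 1.24e-08 and 1.71e-08). Orc1, the regulated subunit of the origin recognition complex, changed by 1.41 ± 0.12. Orc2, another subunit of the same complex, changed by 0.73 ± 0.06. Orc6 lay at 1.296 ± 0.10 and Gmnn, which encodes the Cdt1 inhibitor geminin, at 1.31 ± 0.12.

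The 6 subunits of the MCM2-7 ring rose by similar amounts, 1.07 (Mcm4) to 1.40 (Mcm5) on the log2 scale, with SE of 0.07 to 0.10 and adjusted p from 5.99e-10 to 1.42e-09. Mcm5 had 1171 and 1085 CPM in the knockout libraries, 1102 to 1247 CPM (median 1162) in the controls and 325 to 605 CPM (median 459) in the naive libraries. Mcm7 had 628 and 627 CPM in the knockout libraries, 658 to 758 CPM (median 703) in the controls and 249 to 391 CPM (median 308) in the naive ones. Mcm4 had 816 and 829 CPM in the knockout libraries, 688 to 850.4 CPM (median 756) in the controls and 308 to 446 CPM (median 353) in the naive ones. No subunit had a naive library as high as any day 4 library. Although the 6 proteins form 1 ring, the levels per kb of exon were not equal. That length joins all annotated exons of a gene, over all its transcripts, so it can exceed the length of the RNA present. In the controls they averaged 294 ± 9.92 CPM per kb for Mcm6 and 293 ± 11.8 for Mcm5, 253 ± 10.02 for Mcm3, 212 ± 13.4 for Mcm4, 159 ± 7.38 for Mcm7 and 110.1 ± 5.35 for Mcm2 (SD, n = 8). Mcm6 and Mcm5 did not differ beyond their spread on this scale. Before division by length, Mcm2, Mcm4 and Mcm7 averaged 766 ± 37.2, 760 ± 48.1 and 706 ± 32.7 CPM in the controls. Mcm6, Mcm5 and Mcm3 averaged 1372 ± 46.3, 1170 ± 47.0 and 948 ± 37.6 CPM (SD, n = 8). The order therefore depends on the length used. By level per kb, Mcm6, Pcna, Mcm5, Mcm3, Mcm4, Fen1 and Mcm7 took the first 7 places among the 46 in the naive, control and knockout libraries alike. E2f1 took the last in each.

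The helicase activation genes held some of the largest changes. Mcm10, which helps to start the helicase, had 165 and 177 CPM in the knockout libraries, 167 to 199 CPM (median 178) in the controls and 36.9 to 85.4 CPM (median 60.6) in the naive libraries. Cdc45, a partner of the ring, had 195 and 179 CPM in the knockout libraries, 175 to 195 CPM (median 181) in the controls and 45.8 to 109 CPM (median 70.3) in the naive ones. Every day 4 library was above every naive one for both genes. The control against naive change was 1.62 ± 0.13 (SE) for Mcm10 and 1.37 ± 0.13 for Cdc45 on the log2 scale. The 4 GINS subunits, which form 1 complex, changed by unequal amounts, 1.46 ± 0.13 for Gins2, 1.304 ± 0.13 for Gins1, 1.001 ± 0.07 for Gins3 and 0.65 ± 0.05 for Gins4. Gins4 was also the most abundant of them per length in the naive libraries, at 52.5 ± 3.82 CPM per kb, against 11.2 ± 1.35 for Gins3, 10.2 ± 2.40 for Gins1 and 8.93 ± 2.31 for Gins2 (SD, n = 8). Before division by length it was still the highest, at 70.8 ± 5.15 CPM. Gins2, Gins3 and Gins1 then had 36.6 ± 9.45, 30.2 ± 3.65 and 15.4 ± 3.64 CPM.

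All 8 polymerase and primase genes rose in the controls, with a median of 1.01 on the log2 scale. The catalytic subunits Pole (1.33 ± 0.11 SE) and Pola1 (1.14 ± 0.13) and the primase subunits Prim2 (1.25 ± 0.10) and Prim1 (1.07 ± 0.09) changed more than the accessory subunits Pole2 (0.95 ± 0.08) and Pola2 (0.86 ± 0.06), a difference that was not tested. The polymerase delta genes Pold1 (0.84 ± 0.08) and Pold2 (0.83 ± 0.09) changed least. Pold1 is also a catalytic subunit, so the order did not hold for all catalytic subunits.

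Among the clamp and its loaders, Pcna, the sliding clamp, had 697 and 551 CPM in the knockout libraries, 627 to 743 CPM (median 670.3) in the controls and 244 to 412 CPM (median 321) in the naive libraries. Rfc1, the large subunit of the standard clamp loader, had 139 and 164 CPM in the knockout libraries, 128 to 146 CPM (median 134) in the controls and 83.4 to 102 CPM (median 92.5) in the naive ones. Rfc4, a small subunit, had 184 and 156 CPM in the knockout libraries, 183 to 227 CPM (median 200.7) in the controls and 59.3 to 112 CPM (median 81.2) in the naive ones. The day 4 libraries were above the naive ones for all 3 genes. The change of Rfc1 (0.54 ± 0.04 SE, log2) was the smallest of all 46, while the small subunits Rfc2 to Rfc5 changed by 0.88 to 1.26. Dscc1, a subunit of the alternative loader that acts with sister chromatid cohesion, changed by 1.24 ± 0.11.

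The genes of single-strand binding and lagging strand maturation rose in 4 of 4 cases. Lig1, the ligase that joins Okazaki fragments, had 409 and 388 CPM in the knockout libraries, 401 to 462 CPM (median 429) in the controls and 121 to 256 CPM (median 176) in the naive libraries. Fen1, the flap nuclease that trims them, and Lig1 changed by 1.25 ± 0.10 and 1.27 ± 0.12 (SE, log2), and the single-strand binding subunits Rpa1 and Rpa2 by 0.73 ± 0.05 and 0.89 ± 0.08. Of the genes of histone loading and fork protection, Chaf1a and Chaf1b, subunits of chromatin assembly factor 1, changed by 1.05 ± 0.13 and 1.13 ± 0.09. Clspn, the fork and checkpoint protein claspin, had 64.9 and 69.2 CPM in the knockout libraries, 58.7 to 72.0 CPM (median 64.4) in the controls and 14.9 to 37.4 CPM (median 23.3) in the naive ones. Timeless, another fork protection factor, changed by 0.97 ± 0.08, so that all 4 rose.

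The genes of S phase entry were the most uneven. Ccne2, one of the paired genes for cyclin E, had 128 and 107 CPM in the knockout libraries, 129 to 189 CPM (median 163) in the controls and 33.4 to 69.5 CPM (median 48.5) in the naive libraries. Ccne1, the other, had 113 and 108 CPM in the knockout libraries, 97.5 to 153 CPM (median 136) in the controls and 32.4 to 97.8 CPM (median 59.4) in the naive ones. Control and naive libraries of Ccne2 were far apart, while the lowest control and the highest naive library of Ccne1 met. The changes were 1.66 ± 0.13 for Ccne2 and 1.07 ± 0.17 for Ccne1 (SE, log2; adjusted p = 3.01e-09 and 2.18e-05). E2f1, an activator E2F, was the lowest of the 46, with 8.79 and 11.4 CPM in the knockout libraries, 6.47 to 15.2 CPM (median 8.85) in the controls and 4.13 to 9.03 CPM (median 5.59) in the naive ones. Its groups overlapped, and its adjusted p of 0.00986 was the highest of the 46 (0.63 ± 0.20). E2f8, an atypical E2F that represses, had 78.7 and 108 CPM in the knockout libraries, 84.3 to 106 CPM (median 96.8) in the controls and 22.3 to 54.2 CPM (median 36.8) in the naive ones, a change of 1.40 ± 0.14. E2f2, an activator, changed by 0.84 ± 0.12.

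**Figure D2:**
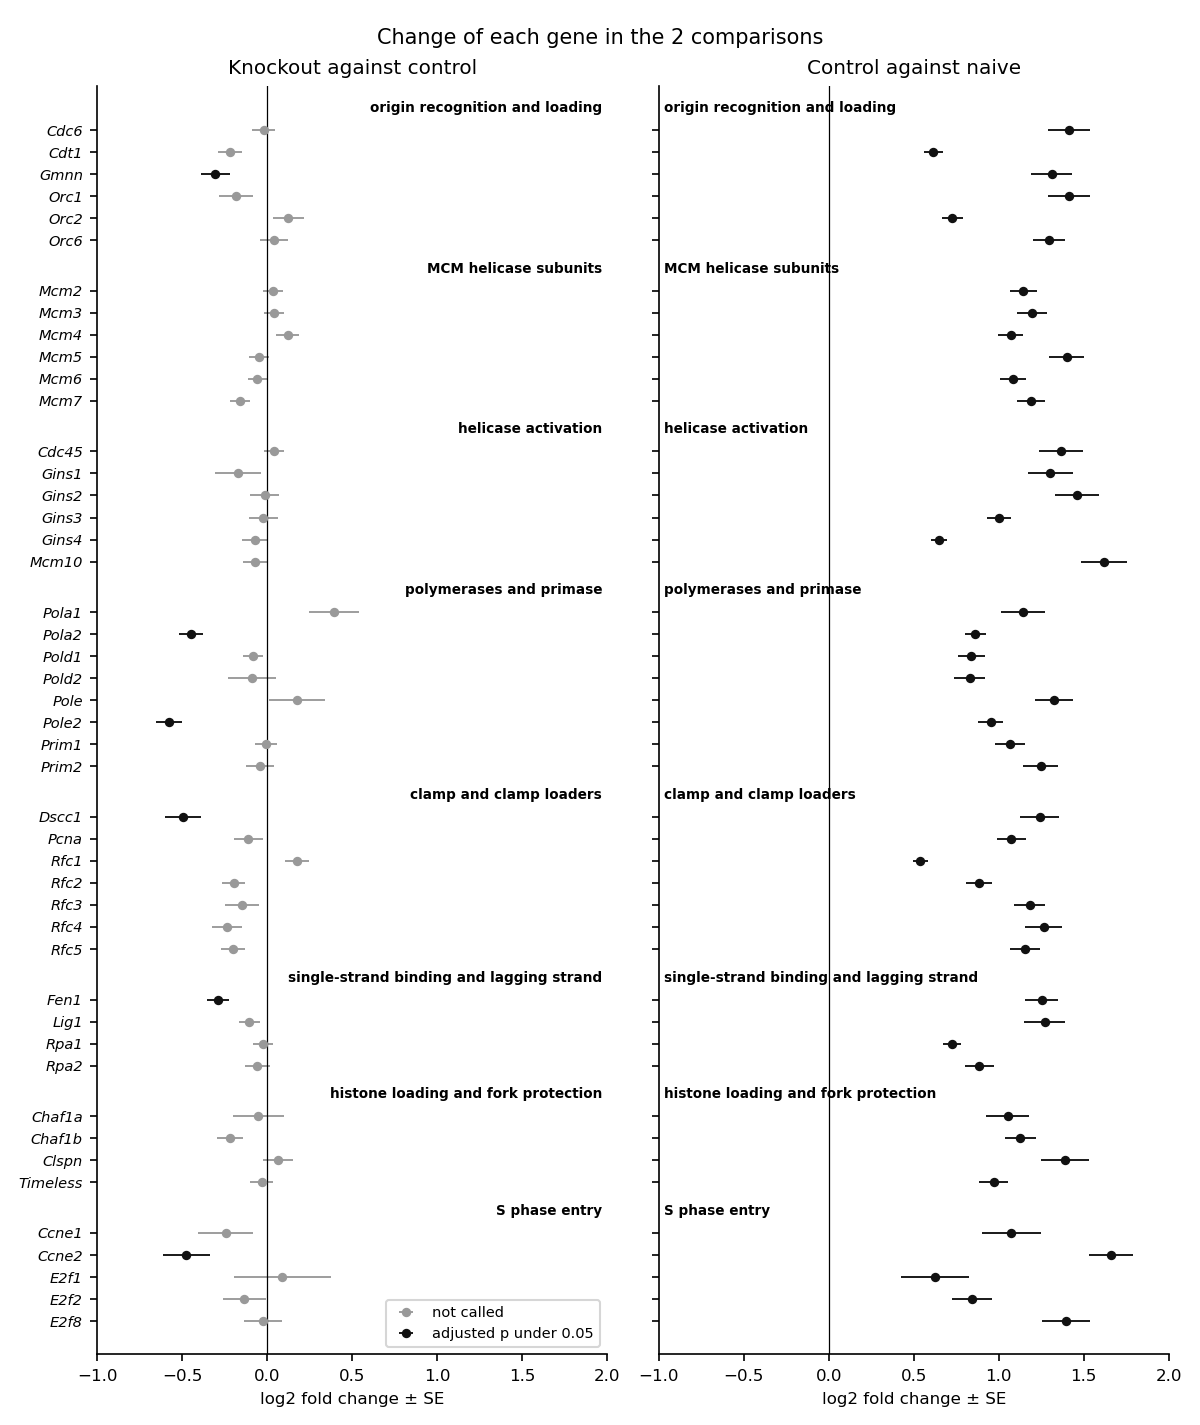
Log2 fold change ± SE of each gene for knockout against control (left) and control against naive (right), black where the adjusted p is under 0.05 and grey otherwise. All 46 black points on the right lie above 0, from 0.54 to 1.66, while on the left 6 are black and all 6 lie below 0.

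In the 46 genes, the naive libraries differed more among themselves than the controls did. The summed level of the 46 genes was 12716 and 12046 CPM in the knockout libraries, 12563 to 13761 CPM (median 12926) in the controls and 4709 to 7684 CPM (median 6096) in the naive libraries. The highest naive sum was 1.63 times the lowest, against 1.10 times among the controls. Naive library 2 was the highest naive library for 43 of the 46 genes, and naive library 5 the lowest for 37. Of the 1035 pairs of genes, 100% were positively correlated over the 8 naive libraries (median Pearson r 0.86), and 77.4% over the 8 controls (median r 0.36). These values describe libraries that share depth and handling and carry no test. They and the coefficients of variation below are given for the 46 genes alone, so whether other genes spread likewise is not shown. The median coefficient of variation was 18.3% in the naive libraries and 5.75% in the controls. Rfc1 had the smallest naive one, 6.53%, and Ccne1 the largest, 31.3%. Marker genes of other cells also differed between these libraries. The summed B cell markers had 71.0 CPM in naive library 2 and 97.0 CPM in naive library 5, and the summed dendritic cell markers 132 and 69.5 CPM. Their part in the spread was not tested. Without naive library 2 or without naive library 5, all 46 genes were still called higher in the controls.

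**Figure D3:**
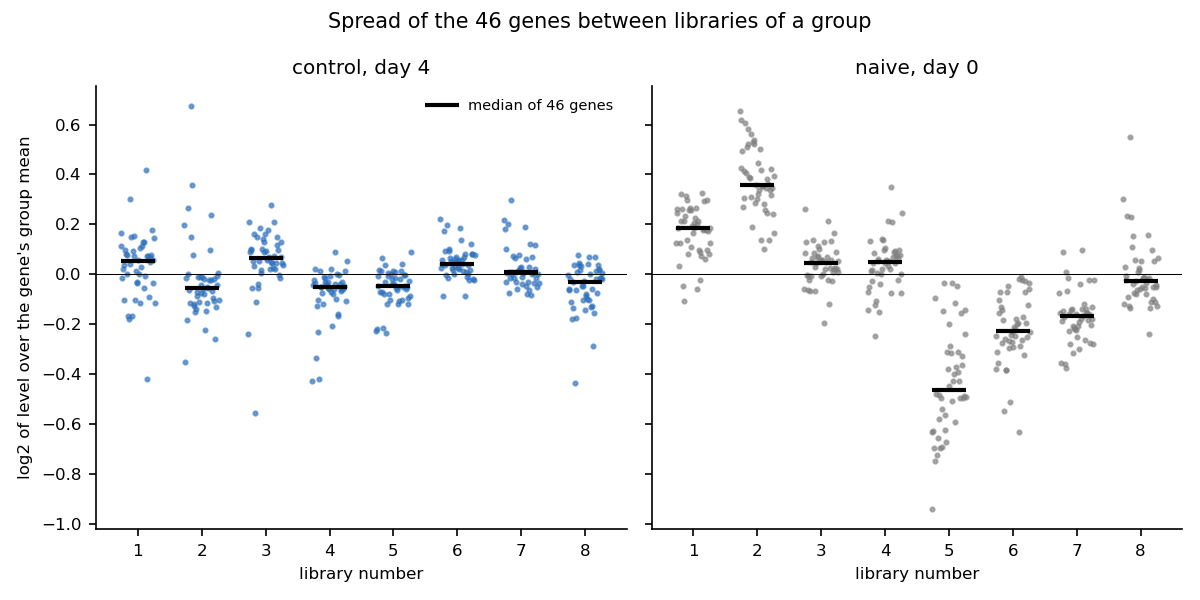
Level of each of the 46 genes in each control (left) and naive (right) library, as log2 of the level over the gene's mean in that group, with a bar at the median of the genes. Nearly all genes lie above 0 in naive library 2 and below 0 in naive library 5, while control medians stay near 0.

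Markers of other cells also differed in the same comparison, though not all in the same direction. The 6 macrophage or monocyte markers summed to 216 to 935 CPM in the controls and 920 to 1262 CPM in the naive libraries, with 5 of 6 called lower in the controls. Ly6c2, which CD8 T cells can also express, carried most of that sum, at 388 ± 252 CPM in the controls and 1027 ± 129 CPM in the naive libraries (SD, n = 8 each). The 10 B cell markers summed to 14.4 to 28.6 CPM in the controls and 71.0 to 144 CPM in the naive libraries, with 5 of the 7 tested called lower. The 5 NK cell markers summed to 15.5 to 71.3 CPM in the controls and 124 to 184 CPM in the naive libraries, and the 6 dendritic cell markers to 19.1 to 37.1 CPM and 69.5 to 159 CPM. Klra8 and Siglech were at 0 in all controls. The 4 CD4 T cell markers differed from these lists, with 2 called higher and 1 lower in the controls. They summed to 4.42 to 20.8 CPM in the controls and 4.13 to 6.07 CPM in the naive libraries. The part of these cells in the change of the replication genes was not tested.

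The 2 libraries labelled knockout were set against the 8 controls of the same day. Of the 46, none was called higher and 6 were called lower (13.0%), where 7.62% of the 18651 genes tested were called higher and 7.24% lower. At an unadjusted p under 0.05, 2 were higher (Pola1 and Rfc1) and 12 lower, against 5485 of all 18651 genes in either direction. DESeq2 called 1 of the 46 higher (Rfc1) and 7 lower, against 1942 higher and 1847 lower over all genes. The median log2 fold change of the 46 was -0.07, against -0.01 over all genes, and 35 of the 46 were below 0. Both knockout libraries lay below all 8 controls for 10 genes (21.7%, against 12.9% of all genes tested) and above them for none (10.9% of all). The 40 genes that were not called had log2 fold changes of -0.25 to 0.39 with SE of 0.05 to 0.29. For 39 of them the change was under 0.25 in size, and the exception was Pola1. Their 95% limits reached -0.56 at the low end (Ccne1) and 0.68 at the high end (Pola1), so changes of that size are not shown to be absent for these genes. The limits assume a normal distribution, which makes them narrow for so few libraries.

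The 6 genes called lower came from 5 of the 8 role groups. Pole2, the second subunit of polymerase epsilon, had 56.5 and 49.4 CPM in the knockout libraries, against 74.9 to 83.3 CPM (median 78.9) in the controls. Its naive range was 31.3 to 48.7 CPM (median 41.3). Both knockout libraries lay between the naive and the control libraries, overlapping neither. The log2 fold change was -0.58 ± 0.08 (SE), 0.67 of the control level, with an adjusted p of 0.000832. Pola2, the regulatory subunit of polymerase alpha, had 169.8 and 154 CPM in the knockout libraries, against 207 to 243 CPM (median 219) in the controls and 109 to 148 CPM (median 120.4) in the naive libraries. It also lay between both other groups, with a change of -0.45 ± 0.07 (adjusted p = 0.00216). The catalytic partners of these subunits were not lower. Pole had 95.3 and 145 CPM in the knockout libraries, against 79.95 to 126 CPM (median 109) in the controls, and Pola1 had 99.7 and 171 CPM, against 94.2 to 125 CPM (median 99.5). In each case one knockout library lay within the control range and the other above it, and neither change passed the test (0.17 ± 0.17, adjusted p = 0.541, and 0.39 ± 0.15, adjusted p = 0.0988).

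Dscc1, the cohesion-linked clamp loader subunit, had 33.4 and 28.8 CPM in the knockout libraries, against 37.4 to 48.8 CPM (median 44.4) in the controls and 11.8 to 24.7 CPM (median 18.3) in the naive libraries. Rfc2, a subunit shared by the clamp loaders, had 279.5 and 248 CPM in the knockout libraries, against 283 to 325 CPM (median 302) in the controls and 131 to 208 CPM (median 160.5) in the naive ones. In both genes the knockout libraries lay below all controls and above all naive libraries, but only Dscc1 passed the test (-0.49 ± 0.11 SE, adjusted p = 0.010, against -0.20 ± 0.07, adjusted p = 0.0696, for Rfc2). Fen1 had 376 and 351 CPM in the knockout libraries, against 411 to 479 CPM (median 443) in the controls and 133 to 245 CPM (median 185) in the naive ones. This fall was the smallest that passed the test, -0.29 ± 0.06 (adjusted p = 0.0119), in a gene with little spread between libraries.

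Gmnn had 169 and 138 CPM in the knockout libraries, against 180.2 to 212 CPM (median 190.0) in the controls and 49.8 to 111 CPM (median 76.0) in the naive libraries. Both knockout libraries were below every control, and the change was -0.31 ± 0.08 (SE, adjusted p = 0.0302). For Cdt1, the protein that geminin inhibits, the change was -0.22 ± 0.07 (adjusted p = 0.0572). Ccne2, whose values are given above, had both knockout libraries below the lowest control, and by less than 1 CPM in one of them. Its change was -0.48 ± 0.14 (adjusted p = 0.0359), and that of Ccne1 -0.25 ± 0.16 (adjusted p = 0.351). With single control libraries left out, Gmnn and Ccne2 were the 2 of the 6 that lost a call. Gmnn is not called without control library 8 (adjusted p = 0.0512) and Ccne2 not without control library 1, 6, 7 or 8 (adjusted p = 0.0513 to 0.0548).

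**Figure D4:**
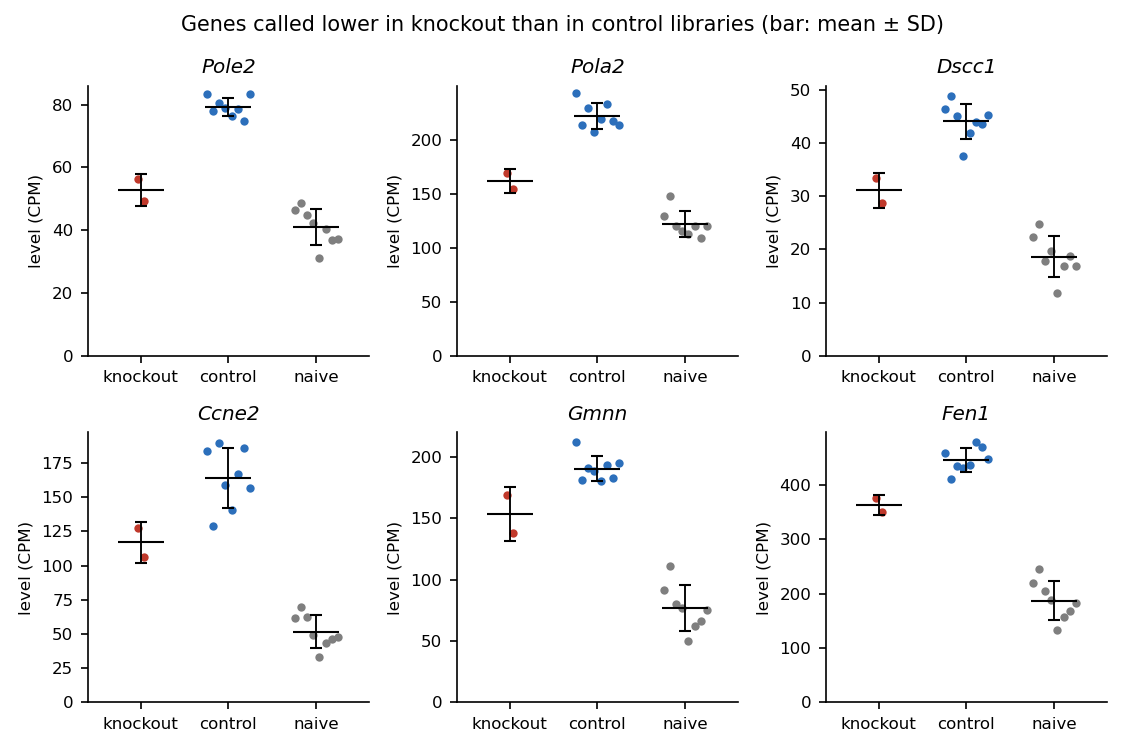
Level in CPM of the 6 genes called lower in knockout than in control libraries, each point 1 library, with a bar at the mean ± SD of knockout (n = 2), control (n = 8) and naive (n = 8). In all 6 panels both knockout points lie below all control points and above all naive points.

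The MCM ring did not change past the threshold in any subunit. The log2 fold changes ran from -0.16 ± 0.06 for Mcm7 to 0.12 ± 0.07 for Mcm4 (SE; adjusted p = 0.0846 and 0.263). Mcm7 was the only subunit with both knockout libraries below all controls. None of the 6 helicase activation genes was called either, and Gins1 lay lowest at -0.17 ± 0.13 (adjusted p = 0.438). It had 37.8 and 29.4 CPM in the knockout libraries, against 32.3 to 46.9 CPM (median 37.2) in the controls and 9.54 to 20.1 CPM (median 16.2) in the naive libraries. None of the 4 genes of histone loading and fork protection was called. Chaf1b had 161 and 135 CPM in the knockout libraries, against 158 to 185 CPM (median 174) in the controls and 56.8 to 106 CPM (median 77.0) in the naive ones. One knockout library lay below the controls and the other within their range, and the change was -0.22 ± 0.08 (adjusted p = 0.0764).

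The knockout libraries differed from each other in a way that followed transcript length. Pola1 had 99.7 CPM in knockout library 1 and 171 CPM in knockout library 2, and Pole had 95.3 and 145 CPM. Gins1 and Pcna went the other way, with 37.8 and 29.4 CPM and with 697 and 551 CPM. Pola1 and Pole have 8813 and 11160 bases of exon, and Gins1 and Pcna 1516 and 2400 bases. Over the 46 genes, the log2 difference between the 2 libraries correlated with log2 exon length (Pearson r = 0.59), and over 12002 genes with more than 1 CPM in both libraries r was 0.34. Both are correlations across genes of the same pair of libraries, with no test. The knockout against control change correlated less with length, at r = 0.32 over the 46 genes and 0.11 over all tested. With a trend on length and GC content removed from the libraries, 6 members were called lower, 5 of them among the 6 above with Rfc4 added, and Fen1 was not (-0.21 ± 0.06, adjusted p = 0.0530). In that fit Ccne2 had the largest fall of the 6 at -0.81, followed by Dscc1 at -0.68, Pole2 at -0.66, Pola2 at -0.57 and Gmnn at -0.28. Without knockout library 2, and in a fit of all 3 groups together, only Pole2 and Pola2 of the 6 kept their calls. Without knockout library 1 all 6 kept theirs, and 12 genes were called lower and 2 (Pola1 and Rfc1) higher, with the lone library assumed to vary like the controls. Erythroid markers summed to 133 CPM in knockout library 1, 13.6 CPM in knockout library 2 and 0.443 to 17.9 CPM in the controls, with 5 of 7 called higher, and of the other lists 1 of the 10 CD8 T cell genes was called higher. Called lower were 3 of the 10 CD8 T cell genes and 1 of the 4 CD4 T cell genes, and the CD8 sum of knockout library 2 lay below every control. Their part in these results was not tested.

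Set against the naive libraries, the knockout libraries had all 46 genes higher, where 21.1% of the 19776 genes tested were called higher. The changes ran from 0.40 ± 0.14 (SE, log2) for Pole2 to 1.57 ± 0.22 for Mcm10, with a median of 1.04. Ranges did not overlap for 45 genes, against 21.3% of all genes tested, and E2f1 was the exception. This comparison shares its naive libraries with the comparison of control and naive, and its knockout libraries with that of knockout and control. The values for the helicase ring were 1.05 to 1.38 for knockout against naive and 1.07 to 1.40 for control against naive. For the 2 largest falls the pairs of values were 0.40 and 0.95 for Pole2 and 0.44 and 0.86 for Pola2. Pole2 and E2f1 had the highest adjusted p of the 46 in knockout against naive (0.0376 and 0.0387). Pole2 lost its call in 10 of 18 alternatives (adjusted p up to 0.523) and E2f1 in 11 of 17 (up to 0.280).

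Other genes of the pathway outside the 46 were read from a pair of lists. Of 30 other replication genes, 26 were higher and 1 lower in the controls than in the naive libraries. Of all genes tested, 32.5% were called higher and 39.0% lower. The lower one was Pold4, the small subunit of polymerase delta, with 12.4 ± 1.66 CPM in the controls and 26.0 ± 3.36 CPM in the naive libraries (SD, n = 8 each; log2 fold change -1.07 ± 0.09 SE). In knockout against control, 2 of the 30 were higher and 5 lower, where 7.62% of all genes tested were called higher and 7.24% lower. Rpa3, the third subunit of the single-strand binding complex, was lower, with 52.3 ± 8.13 CPM in the knockout libraries (SD, n = 2) and 92.6 ± 4.60 CPM in the controls (SD, n = 8; log2 fold change -0.82 ± 0.09 SE, adjusted p = 0.000321). The members Rpa1 and Rpa2 were at -0.02 ± 0.06 and -0.06 ± 0.07 and were not called. Also lower were Rnaseh2a and Rnaseh2b, subunits of the nuclease that removes RNA from DNA (-0.52 ± 0.10 and -0.56 ± 0.09), and the origin recognition subunits Orc3 (-0.41 ± 0.08) and Orc5 (-0.38 ± 0.11). Higher were Orc4 (0.33 ± 0.08), of the same complex, and Ticrr, the treslin gene needed to start origins (0.85 ± 0.20). Ticrr averaged 80.7 ± 43.6 CPM in the knockout libraries (SD, n = 2), so the libraries differed widely. In knockout against naive, 19 of the 30 were higher and 2 lower (Pold4 and Orc5), where 21.1% of all genes tested were called higher and 23.6% lower.

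Of 26 genes that control S phase, 20 were higher and 2 lower in the controls than in the naive libraries. Of all genes tested, 32.5% were called higher and 39.0% lower. The lower ones were Cdkn1b, which encodes the CDK inhibitor p27 (-0.86 ± 0.07 SE, log2), and Rbl2, which encodes the retinoblastoma family member p130 of resting cells (-0.67 ± 0.06). Mybl2, an E2F target and partner of the cell cycle complex MuvB, was higher (1.75 ± 0.13). In knockout against control, 6 of the 26 were higher and 1 lower, where 7.62% of all genes tested were called higher and 7.24% lower. Rbl2 averaged 183 ± 47.2 CPM in the knockout libraries (SD, n = 2), 89.2 ± 10.2 CPM in the controls and 142 ± 9.41 CPM in the naive libraries (SD, n = 8 each). Its change in knockout against control was 1.04 ± 0.13 (SE, log2; adjusted p = 0.000621). Cdkn1a, which encodes the CDK inhibitor p21, averaged 16.001 ± 0.318 CPM in the knockout libraries (n = 2), 8.11 ± 2.45 CPM in the controls and 7.20 ± 2.31 CPM in the naive libraries (SD, n = 8 each), a change of 0.99 ± 0.27 (adjusted p = 0.0288). Lin54, a MuvB subunit, and Uhrf1, which maintains DNA methylation at forks, were higher by 0.39 ± 0.10 and 0.34 ± 0.09. Lin37, another MuvB subunit, was the lower one (-0.31 ± 0.09, adjusted p = 0.0306). In knockout against naive, 21 of the 26 were higher, and 1, Cdkn1b, was lower, where 21.1% of all genes tested were called higher and 23.6% lower.

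Because Tra2b acts in splicing, the 46 genes were also read by annotated transcript. In the median gene, protein-coding transcripts held 99.2% of the counts in the knockout libraries, 99.1% in the controls and 98.8% in the naive libraries. That share was at least 90% in 38 of the 46 genes in each group. Some others held less, such as Cdc6, Prim1 and Orc6 at 60.6, 60.2 and 65.2% in the controls. Pold1, the catalytic subunit of polymerase delta, was the only gene under 50% in the knockout and control libraries. Its transcript Pold1-208, annotated for nonsense-mediated decay, held 54.5 and 74.9% of the Pold1 counts in the knockout libraries, 3.75 to 77.3% (median 73.4%) in the controls and 0 to 11.1% (median 2.66%) in the naive libraries. The coding transcript Pold1-201 held 43.0 and 20.4%, 19.0 to 95.4% (median 22.8%) and 85.9 to 97.8% (median 94.7%) in the same groups. Control library 1 was like the naive libraries, and the other 7 controls had at least 53.3% of Pold1-208. The transcripts differ inside the gene by 1 exon, exon 22 of the 27 of Pold1-201, which Pold1-208 skips. That exon lies at chr7:44534385-44534487 on GRCm38, on the minus strand, and is printed from the GENCODE M21 transcript, in capitals, with 20 bases of each neighbouring exon.
Pold1 exon 22 with flanks: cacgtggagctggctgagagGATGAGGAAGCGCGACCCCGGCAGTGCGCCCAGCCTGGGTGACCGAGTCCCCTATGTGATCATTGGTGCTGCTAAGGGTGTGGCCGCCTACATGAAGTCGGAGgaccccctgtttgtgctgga
The exon is 103 bases long, which leaves 1 base over when divided by 3, so skipping it shifts the reading frame. The counts per transcript are the authors' estimates from short reads, and the reads across this junction were not examined here.

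**Figure D5:**
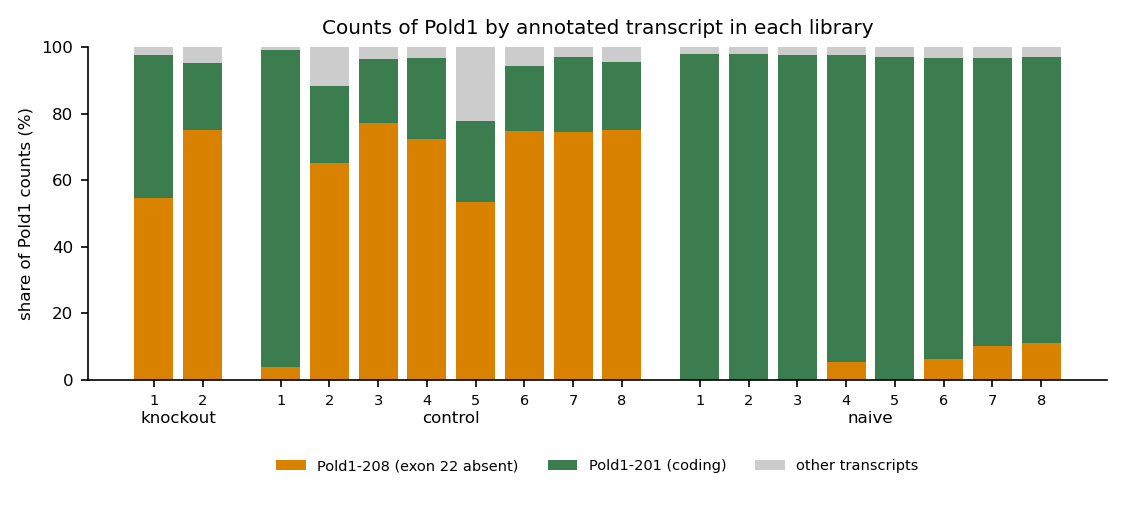
Share of Pold1 counts in each library given to Pold1-208, Pold1-201 and all other annotated transcripts, as stacked bars with knockout on the left, control in the middle and naive on the right. Pold1-208 held 53.3 to 77.3% in 7 of 8 controls, 54.5 and 74.9% in the knockout libraries and at most 11.1% in the naive ones.

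In the usage test across all genes, 5 of the 43 members with at least a pair of counted transcripts were called for control against naive, where 10.4% of 8581 genes were. They were Pold1, Mcm7, Lig1, Prim1 and Ccne1. Pold1-208 rose relative to the rest of its gene by 2.72 on the log2 scale (adjusted p = 5.67e-06, edgeR transcript usage test), with 3.75% in the control library that did not follow. In Mcm7 and Ccne1 the main transcripts, Mcm7-201 and Ccne1-201, held at least 97.4% of the counts in every library, so the called differences lay in transcripts of small share. On simulated data this test made more false calls than its threshold allows, so its calls serve as descriptions. In knockout against control, none of 44 members was called, where 1.9% of 9653 genes were. At an unadjusted p under 0.05 there was 1 member, against 957 of all genes, and limma voom called 5 members, against 9.91% of all genes.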

How the data were processed

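RNA was sequenced from 18 libraries of CD8+ T cells, 2 knockout, 8 control and 8 naive. Per the labels' protocols, RNA was extracted with a miRNeasy Micro kit and amplified with a SMARTer ultra-low polyA V4 kit. The submitters' processing notes name StringTie 2.1.0 and the aligner STAR 2.7.1a, with SAMtools 1.9 and DESeq2 1.30.1 under R 4.0.5, and the builds mm39 and mm10 without a role. The deposited values are the authors' estimated counts per gene and per transcript, and were rounded to whole numbers where needed. All 55536 Ensembl gene identifiers were matched to GENCODE M21. Rows with a number in place of an identifier held 0.0513 to 0.132% of the counts and were left out.

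Each comparison was fitted with edgeR 4.0.16 (R 4.3.3, quasi-likelihood test, TMM factors, filterByExpr with a minimum count of 10) on the libraries of its 2 groups. P-values were adjusted over all genes tested by the Benjamini-Hochberg method, and a gene was called at an adjusted p under 0.05. Levels are CPM after TMM scaling over all 18 libraries, and per-length levels divide CPM by the kb of exon. The exon length of a gene joins the exons of all its annotated transcripts. Transcript usage was tested with edgeR's exon-level method on the transcript counts. DESeq2 1.42.0, limma 3.58.1, other scalings and filters, a replicate block, a length and GC trend removed, and each library left out were tried as alternatives. The steps were tested on simulated data. Members given library by library were the 2 with the smallest p in each role in knockout against control, all those called, and others added after their values were seen. The members and lists were chosen with earlier results of these data known.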

Additional observations from a re-analysis of the deposited data

Results flagged for a closer look

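Of 98 groups of 8 libraries examined, 7 held a library that stood far from the other 7, and chance alone gives about 1 such group in 20. Among levels of the 46 genes, control library 2 was highest for E2f2 at 82.7 CPM, with the next at 65.2 CPM. Control library 1 was highest for Gmnn at 212 CPM, with the next at 195 CPM, and control library 3 for Rpa1 at 676 CPM, with the next at 624 CPM. Naive library 2 was highest for Cdt1 at 97.8 CPM, with the next at 83.2 CPM. Control library 2 was lowest for Tra2b at 338 CPM, with the next at 440.0 CPM. Control library 1 had 3.75% of its Pold1 counts in Pold1-208, with the next lowest at 53.3%, and 95.4% in Pold1-201, with the next highest at 24.4%.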

How the results depend on the processing

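All 46 genes were higher in control than in naive libraries under each alternative except 2. The alternative with mean log2 CPM of at least 4 gave 45, as E2f1 fell under that level and was not tested. A demand for a log2 fold change of 1 left 32. At that fold change, 1454 of all 17078 genes were called higher in control against naive and 1256 of 19776 in knockout against naive. In knockout against control, 323 of 18651 were called lower at that size. For knockout against naive the count of 46 was 27 under a replicate block, 26 with a log2 fold change of at least 1, 44 with total counts, with no low-count filter and with the length and GC trend removed, 45 in a fit of all groups and with mean log2 CPM of at least 4, and 40 to 46 with a library left out. The 6 genes lower in knockout than in control libraries were 2 in a fit of all groups, 0 under a replicate block, 0 with a log2 fold change of at least 1 and 2 to 12 with a library left out. The count of higher genes was 1 with DESeq2 and 0 to 2 with a library left out. The replicate block kept only libraries whose number occurs in both groups. Against the knockout libraries it therefore left out control or naive libraries 3 to 8. Its lower counts there cannot be put down to the block alone, since fewer libraries were fitted. Under the replicate block the 6 had adjusted p of 0.160 to 0.251, and 0 of all genes were called (edgeR), with 3297 at an unadjusted p under 0.05. With group means removed, same-numbered libraries correlated at -0.02 to 0.03 (control and naive), so no pairing by replicate number was seen there. For knockout and control the values were 0.01 and 0.05. The 2 knockout libraries mirror each other around their mean, so the check cannot show whether they are paired. Own numbers correlated best for 1 of 8 pairs in control and naive, 1 of 2 in knockout and control and 1 of 2 in knockout and naive. Usage calls in control against naive numbered 5 of 43, with 18 by limma voom (which called 42.7% of all genes), 3 under the replicate block and 5 to 6 with a library left out. In knockout against control they numbered 0, with 5 of 44 by limma voom (9.91% of all genes). E2F letters were found in 15 promoters, in 8 when reading stops at the start (22.2% of members, 2.2% of all genes) and in 29 with the last 6 letters only (80.6 and 39.0%). No log2 fold change of a member changed sign with its call. Scaling by total counts moved the median of all genes to -0.18 in control against naive, from -0.09. The cause of these differences was not tested. With 2 knockout libraries, small changes stay undetected.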
